A study of Mus musculus with 36 samples.

Results

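Ventricular myocardium sampled 1 day after resection of heart tissue was compared with unoperated neonatal ventricle, to ask whether the libraries labelled resected show a response to injury. The members were chosen by their labels: 2 libraries labelled 1 day after resection (day 1 resected) against 4 unoperated libraries, 2 from postnatal day 0 (P0) and 2 from P4. These are 6 of the 36 libraries of the series, and of 36128 gene models the 13435 with 1 FPKM or more in 2 or more of the 6 were tested. FPKM are mapped fragments divided by transcript length and by library size, so that they give a relative level.

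The 36 libraries come from ventricle, isolated neonatal or operated-heart cardiomyocytes and explanted adult cardiomyocytes, and 16 of them are ventricle, 2 in each of 8 groups. All of the ventricle libraries come from mice of CD-1 background, with no transgene, deletion or drug given in the labels. Besides the groups compared here they cover unoperated P7 and adult ventricle, ventricle 7 days after resection, and ventricle 1 and 7 days after a sham operation. The age at operation is not given in the sources used here, so the unoperated P0 and P4 hearts are not known to be age-matched to the operated ones. The labels name ventricular myocardium as the source and cardiomyocytes as the cell type, and markers of fibroblasts, endothelium and blood were measured in every library compared here. The labels do not say whether replicates are separate animals or pools, so p-values measure the spread between these libraries only. In bulk tissue, fewer cells of a type and less RNA per cell cannot be told apart.

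As background, the newborn mouse heart can replace a resected apex by division of existing cardiomyocytes, an ability it loses within days of birth. Tissue damage is known to release alarm signals that draw neutrophils and then monocytes into the heart, to switch on immediate early transcription factors in resident cells, and to induce acute-phase proteins through gp130 receptors and STAT3. Fibroblasts then deposit provisional matrix, and stressed cardiomyocytes raise fetal genes such as the natriuretic peptides.

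The 2 labelled resected libraries differed from the 4 unoperated libraries in 6232 of 13435 gene models (46.4%) by limma's moderated test on log2(FPKM + 1) at a Benjamini-Hochberg adjusted p under 0.05. Of these, 1877 (14.0%) were higher and 4355 (32.4%) lower, and 575 of the higher and 1048 of the lower calls were unnamed models or pseudogenes. The split depended on scale: median-of-ratios scaling gave 3000 higher (22.3%) and 3536 lower (26.3%), 48.6% in all, and quantile normalization 3362 (25.0%) and 2670 (19.9%), 44.9% in all. A correction for GC content, over the 12969 models with a GC value, gave 2504 higher (19.3%) and 2377 lower (18.3%), 37.6% in all. The median difference over all models was -0.20 on the log2 scale as deposited, -0.02 with the former scaling and 0.11 with quantile normalization, and changes below are to be read against these shifts. Counts of list members are to be read against the shares of all models: 14.0% called higher and 32.4% lower as deposited, and 19.3% and 18.3% after GC adjustment. Without the first labelled resected library 1888 models were higher and 3579 lower; without the second the counts were 1335 and 4211.

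Much of this difference was shared by every operated library. Of 14306 models tested over the 16 ventricle libraries, 1434 were higher in all 8 operated than in all 8 unoperated libraries and 1985 were lower, whatever the day or the operation. Correlation of log2 levels with the labelled resected libraries was 0.977 to 0.990 for the other operated libraries and 0.904 to 0.943 for the unoperated ones, as a description. The difference also followed GC content. From the lowest to the highest of 5 equal groups of transcript GC the median log2 difference between labelled resected and unoperated ventricle went from 0.08 to -0.97, and the share of models called lower from 10.9% to 75.6%. Sham ventricle at day 7 against unoperated P7 ventricle, a comparison that shares no library with this one, went from 0.12 to -0.75, whereas P4 against P0 stayed between -0.09 and 0.04. The labels name more than 1 library kit and sequencer without saying which library had which, so the operation and the library set cannot be told apart. Each result below is therefore given as deposited. For called genes with printed values, the GC-adjusted value is added where it ends the call or moves the value by more than 1.5 times. A further value subtracts the difference between day 7 sham and P7 ventricle, which is called the day 7 sham offset. Of the tested genes described below Fos, Nr4a1, Sik1, Adamts1, Arg1, Serpina3n, Tcf21, Rpl38, Ccdc117, Thsd1, mt-Tq and mmu-mir-689-2 were called after this subtraction, and no other was. All but mt-Tq kept their sign: it was called lower as deposited and higher after the subtraction. The offset removes whatever day 1 resected and day 7 sham libraries share, an effect of surgery included, and 1 of the 2 day 7 sham libraries held 23.5 FPKM of the lung gene Sftpc against 0.41 and 0.23 in the labelled resected ones.

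**Figure D1:**
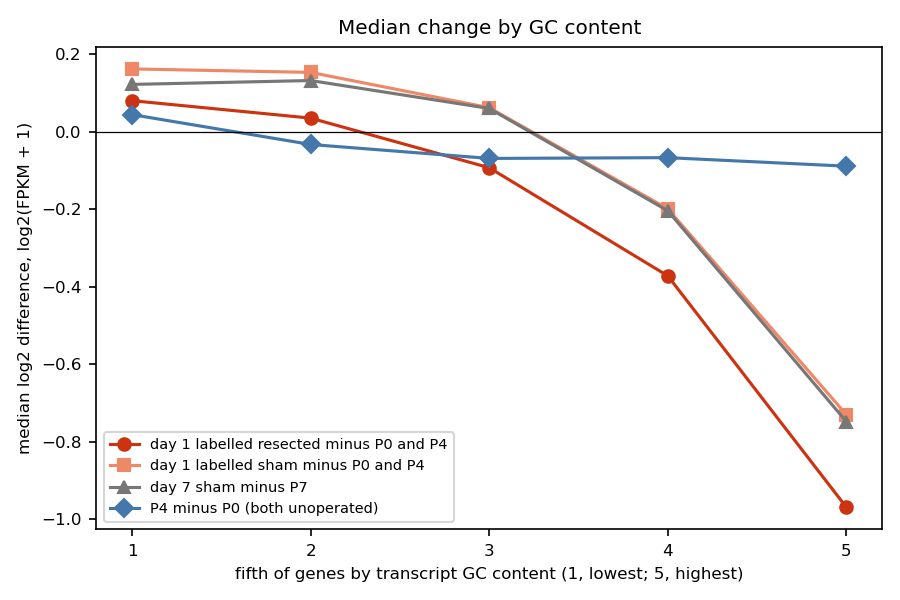
Median log2 difference (vertical axis, log2(FPKM + 1)) of gene models in 5 equal groups of transcript GC content (horizontal axis, low to high) for labelled resected against unoperated, day 1 sham against unoperated, day 7 sham against P7, and P4 against P0. The 3 comparisons of operated with unoperated libraries fall in the top 2 groups, to -0.97, -0.73 and -0.75 in the highest, and P4 against P0 stays near 0.

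After subtraction of the offset 40 of 14306 models were called (0.280%), 12 higher (0.0839%) and 28 lower (0.196%), and after subtraction with GC adjustment 19 of 13755 (0.138%), 10 higher (0.0727%) and 9 lower (0.0654%). An unadjusted p under 0.05 was reached by 1969 models with the offset subtracted. The genes called with the same sign as deposited, after GC adjustment, after subtraction and after both were 6 higher and 7 lower, and they were picked out after their values were seen. Of the 7 lower ones 2 were unnamed models and are not described. The 6 higher genes were Fos, Nr4a1, Sik1, Adamts1, Arg1 and Serpina3n. The first 3 are immediate early genes, which are transcribed within minutes of a stimulus without new protein synthesis.

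The cAMP response element is a textbook control site of immediate early genes, and promoter sequences are shown for 4 of the 6 called higher in the labelled resected libraries. They were chosen because their promoters hold the half-site of this element; the other two, Fosl2 and Klf6, hold none in the same window. Each run is the 250 bases before the transcription start from RefSeq on GRCm38.p6, written 5′ to 3′ on the gene's strand, and the capitals mark the element's half-site TGACG, or CGTCA where it lies on the other strand.
Fos, chr12:85473640-85473889, plus strand: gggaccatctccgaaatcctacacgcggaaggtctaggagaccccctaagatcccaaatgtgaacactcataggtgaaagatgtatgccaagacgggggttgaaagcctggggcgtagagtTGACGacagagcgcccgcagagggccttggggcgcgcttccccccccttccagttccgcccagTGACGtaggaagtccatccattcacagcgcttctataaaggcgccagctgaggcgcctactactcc
Nr4a1, chr15:101266596-101266845, plus strand: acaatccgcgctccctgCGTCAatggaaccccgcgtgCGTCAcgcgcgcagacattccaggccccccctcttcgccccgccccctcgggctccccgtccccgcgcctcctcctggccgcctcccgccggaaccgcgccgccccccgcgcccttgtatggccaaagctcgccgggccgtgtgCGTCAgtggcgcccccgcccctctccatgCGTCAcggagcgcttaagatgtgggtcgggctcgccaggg
Nr4a3, chr4:48045055-48045304, plus strand: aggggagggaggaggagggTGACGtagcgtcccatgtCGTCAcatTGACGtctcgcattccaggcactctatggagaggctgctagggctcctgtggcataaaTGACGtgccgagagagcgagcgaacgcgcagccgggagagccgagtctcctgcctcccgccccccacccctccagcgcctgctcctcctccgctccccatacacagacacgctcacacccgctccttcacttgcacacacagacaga
Atf3, chr1:191183334-191183583, minus strand: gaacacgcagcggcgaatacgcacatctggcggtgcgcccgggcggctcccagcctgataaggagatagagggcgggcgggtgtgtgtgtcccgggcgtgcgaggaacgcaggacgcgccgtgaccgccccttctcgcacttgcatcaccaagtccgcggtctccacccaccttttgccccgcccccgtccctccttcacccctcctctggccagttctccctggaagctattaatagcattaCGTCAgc
The Nr4a1 and Nr4a3 windows each held 4 half-sites, the Fos window 2 and the Atf3 window 1. Of 32851 promoters in the table, 5836 (17.8%) held at least 1. Of the 17 tested immediate early genes 14 were matched by symbol and 8 of those held one, among them the 4 shown and Junb, which was called lower. A gene was counted if any of its promoters held one, whereas the 17.8% is a share of single promoters, so the 2 are not alike. A match is a run of letters in this window and not a measured binding site. Egr1, Ier2 and Myc were not matched.

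Fos (mm9 chr12:86814839-86818223), a subunit of the AP-1 transcription factor, was at 9.33 and 8.82 FPKM in the labelled resected libraries, 2.02 and 1.52 at P0 and 0.64 and 0.71 at P4. Both labelled resected values lay above every unoperated P0 and P4 value. The difference was 2.23 ± 0.26 (SE, 2 against 4) on the log2 scale (adjusted p = 0.000163) and 3.18 after the offset (adjusted p = 0.00792). The labelled day 1 sham libraries held 5.29 and 5.96 FPKM, between the groups, and the difference of labelled resected from labelled sham was 0.61 (adjusted p = 0.237). P7 hearts held 3.79 and 5.38 FPKM and day 7 sham hearts 1.21 and 2.68, which is where the larger value after the offset comes from.

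Nr4a1 (mm9 chr15:101097276-101105223), an orphan nuclear receptor, was at 13.7 and 14.4 FPKM in the labelled resected libraries, 5.90 and 4.50 at P0 and 2.09 and 3.14 at P4. The groups did not overlap, and the log2 difference was 1.68 ± 0.28 (SE; adjusted p = 0.00141). With the offset it was 4.00 (adjusted p = 0.00689). Unoperated P7 hearts held 15.1 and 15.8 FPKM and day 7 sham hearts 1.81 and 2.89, which is where the larger value after the offset comes from. Nr4a1 was also higher than in the labelled sham libraries, at 5.51 and 4.04 FPKM, by 1.40 (adjusted p = 0.0487), a call lost without the second P0, the second P4, either labelled sham or the first labelled resected library (adjusted p 0.0684 to 0.28). Sik1 (mm9 chr17:31981192-31992737), a kinase induced by cAMP signalling, was at 15.1 and 13.7 FPKM against 9.93 and 7.87 at P0 and 6.07 and 7.39 at P4. It rose by 0.82 ± 0.18 (adjusted p = 0.00575), by 1.54 after GC adjustment and by 2.13 after the offset (adjusted p = 0.0258). Unoperated P7 hearts reached 16.9 and 14.9 FPKM and day 7 sham hearts 5.47 and 6.13, so the offset again enlarged the value. The levels of Nr4a1 and Sik1 in labelled resected hearts thus lay above P0 and P4 but not above P7.

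In the immediate early list 17 of 22 members were tested, 6 were called higher and 3 lower, with a median of 0.09 against -0.20 over all models. After GC adjustment 9 were higher and 1 lower. One member, Nr4a3, passed the expression minimum only through the labelled resected libraries. Counted over all 22 members, 9 had both labelled resected values above all 4 unoperated values, where 13.9% of models with any signal did, and 5 had both below, where 30.1% did. Atf3, a stress-induced repressor of the ATF family, was at 15.5 and 17.5 FPKM in the labelled resected libraries, 4.13 and 3.14 at P0 and 1.74 and 2.24 at P4. It rose by 2.24 ± 0.24 (adjusted p = 0.000109), and the labelled sham libraries, at 9.83 and 12.1 FPKM, again lay between (difference 0.55, adjusted p = 0.259). After the offset Atf3 was at 1.41 (adjusted p = 0.218). Nr4a3, a close relative of Nr4a1 that was named after its values were seen, was at 3.06 and 3.12 FPKM against 0.47 to 0.72 in unoperated and 0.88 and 1.16 in labelled sham hearts. It was higher than unoperated by 1.36 (adjusted p = 0.000121; 1.08 and 0.0548 after the offset) and than labelled sham by 1.02 (adjusted p = 0.0164). The immediate early calls above labelled sham, 2 in all, fell to 0 without either labelled sham or the first labelled resected library. Against unoperated hearts the list had 4 higher and 3 lower without the first labelled resected library and 4 and 4 without the second.

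Not all immediate early genes rose. Junb and Jun, further AP-1 subunits, and Ier2, a short-lived nuclear regulator, were called lower as deposited, by values of -1.51, -1.11 and -1.62. Jun was at -0.53 after GC adjustment (adjusted p = 0.038). Junb was at 0.89 and 0.97 FPKM against 4.03 to 5.27 in unoperated hearts, and its difference was 0.01 after GC adjustment. Ier2 likewise was at -0.28 after that adjustment. Egr1, a zinc-finger immediate early factor, was at 8.33 and 6.27 FPKM within the unoperated range of 4.61 to 9.97 (difference 0.08, adjusted p = 0.831). These 4 genes were named after their values were seen.

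**Figure D2:**
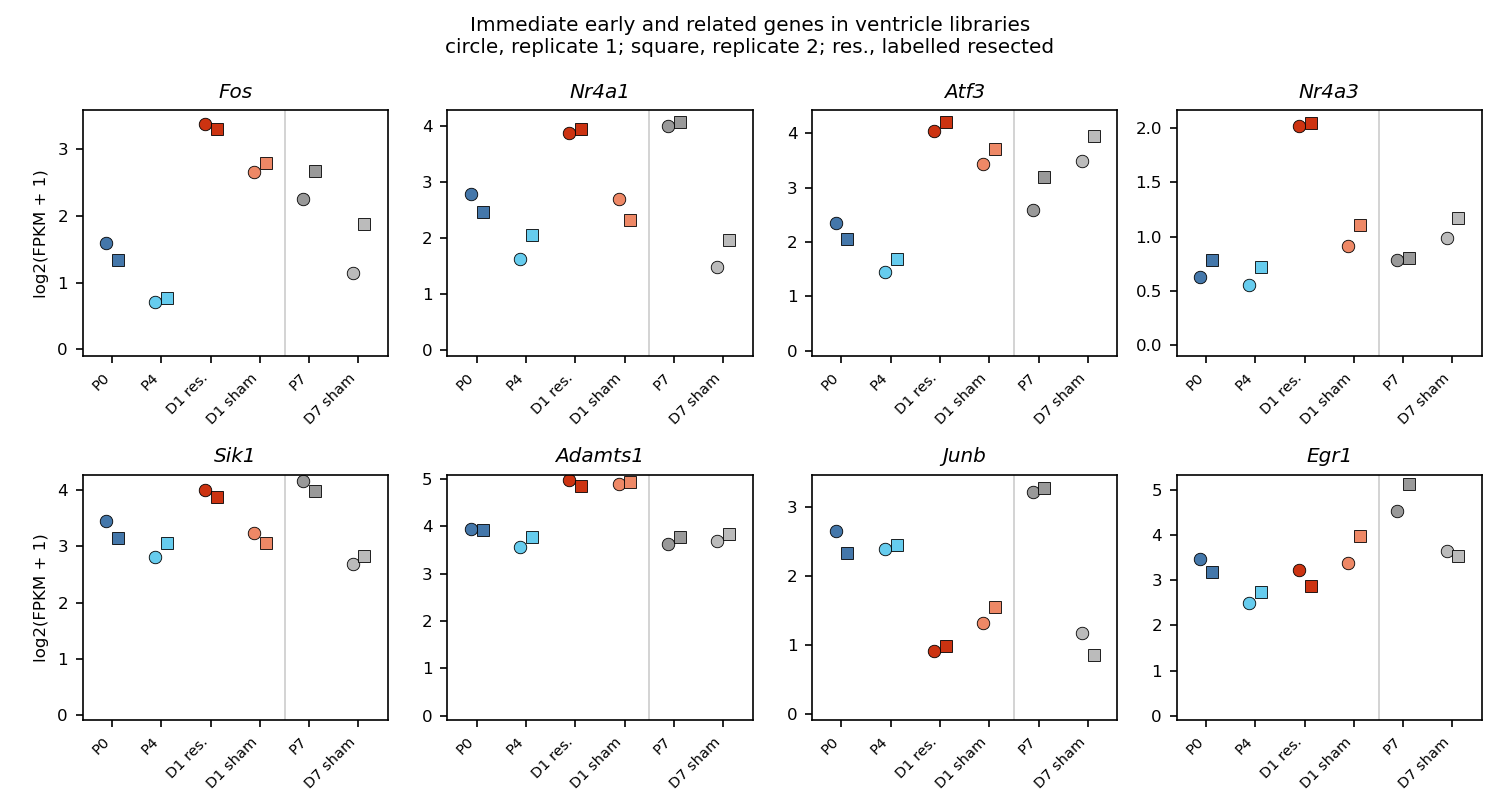
Levels (vertical axes, log2(FPKM + 1)) of 8 genes in each ventricle library of P0, P4, day 1 resected and day 1 sham, and right of the grey line P7 and day 7 sham; circles are replicate 1 and squares replicate 2. Fos, Atf3 and Nr4a3 are highest in the 2 labelled resected libraries among the day 1, P0 and P4 groups, Nr4a1 and Sik1 are as high at P7, and Junb is lower in all operated libraries.

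The other 3 higher genes were a protease, a macrophage enzyme and an acute-phase inhibitor. Adamts1 (mm9 chr16:85794071-85803358), a secreted protease that cleaves versican, was at 30.5 and 27.8 FPKM in the labelled resected libraries, 14.4 and 14.2 at P0 and 10.8 and 12.6 at P4. It rose by 1.11 ± 0.15 (adjusted p = 0.000423) and by 1.06 after the offset (adjusted p = 0.0303). The labelled sham libraries were as high, at 28.7 and 29.4 FPKM.

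Arg1 (mm9 chr10:24635013-24647276), the arginase of wound macrophages, was at 2.90 and 2.88 FPKM in the labelled resected libraries and at 0.05 to 0.09 in the 4 unoperated ones. Its level was near 0 in every unoperated library and between 0.17 and 0.50 in the 4 day 7 libraries. The log2 difference was 1.85 ± 0.14 (adjusted p = 1.8e-05), and 1.70 after the offset (adjusted p = 0.029). The labelled sham libraries held 21.0 and 40.0 FPKM, so that labelled resected hearts were lower by -2.95 (adjusted p = 0.000726).

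Serpina3n (mm9 chr12:105644938-105652539), an acute-phase serine protease inhibitor, was at 8.02 and 8.38 FPKM in the labelled resected libraries, 0.36 and 0.33 at P0 and 0.15 and 0.14 at P4. It rose by 2.89 ± 0.15 (adjusted p = 1.96e-06) and by 2.47 after the offset (adjusted p = 0.00689). The labelled sham libraries were again higher, at 33.9 and 44.2 FPKM (difference -2.11, adjusted p = 0.000726). Unoperated adult hearts also held 4.57 and 10.04 FPKM. Arg1 and Serpina3n both passed the expression minimum only through the labelled resected libraries.

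Summed levels of neutrophil and recruited macrophage markers were higher in both labelled resected libraries than in any unoperated one, and higher still in both labelled sham libraries. In the neutrophil list 8 of 16 members had both labelled resected values above all 4 unoperated values and 2 had both below, beside 13.9% and 30.1% of models with any signal. Of its 6 tested members 5 were called higher and none lower, but 3 passed the minimum only through the labelled resected libraries. Leaving out the first labelled resected library gave 2 of 4 tested called higher, and leaving out the second 2 of 3. None of the 6 was called after the offset. The summed level of the list was 56.4 and 36.5 FPKM in labelled resected, 6.86 to 17.9 in unoperated and 114 and 212 in labelled sham hearts. In the labelled resected libraries S100a8 and S100a9 made up most of it. S100a8, a subunit of the neutrophil protein calprotectin, was at 15.3 and 11.3 FPKM against 4.00 and 4.72 at P0 and 2.38 and 1.2 at P4. It rose by 1.89 (adjusted p = 0.0023; 0.44 and 0.788 after the offset). Its partner S100a9 was at 27.2 and 15.2 FPKM against 2.45 to 7.58 and rose by 2.0 (adjusted p = 0.00392; 0.91 and 0.527 after the offset). In labelled sham hearts S100a8 reached 37.5 and 72.5 FPKM and S100a9 42.5 and 74.0, and the difference of labelled resected from labelled sham was -1.91 for S100a8 (adjusted p = 0.0466) and -1.42 for S100a9 (adjusted p = 0.127). The S100a8 call was lost when any library but the second P4 was left out (adjusted p 0.0588 to 0.29). Ly6g, the defining neutrophil surface marker, was listed at 0.25 and 0 FPKM in the labelled resected and at 0 in all 4 unoperated libraries. The 2 members below all unoperated values were Csf3r and Camp. Csf3r was at 0.14 and 0.10 FPKM against 0.17 to 0.25, and Camp at 0.17 and 0 against 0.41 to 1.02. Neither was tested, and both were named after their values were seen.

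Among 16 genes of recruited monocytes and macrophages, 9 had both labelled resected values above all 4 unoperated values and 1 had both below. The 1 below was Ms4a7, at 0.33 and 0.39 FPKM against 0.51 to 0.93. Ccr2, a marker of recruited monocytes, was at 0.59 and 0.63 FPKM, within the 0.51 to 0.77 of unoperated hearts. Neither was tested. Of 9 tested, 6 were called higher and none lower; Cd14, Spp1 and Arg1 passed the minimum only through the labelled resected libraries. Without the first of these 3 of 7 tested were called higher, and without the second 3 of 6. After the offset Arg1 was the 1 member called. Their summed level was 62.1 and 64.0 FPKM in labelled resected, 26.6 to 35.0 in unoperated and 238 and 328 in labelled sham hearts. Spp1, osteopontin, a matrix cytokine of injury macrophages, was at 11.9 and 8.27 FPKM against 0.54 and 0.55 at P0 and 0.27 and 0.32 at P4. It rose by 2.95 ± 0.19 (adjusted p = 5.11e-06), with a value of 1.51 after the offset (adjusted p = 0.202). The labelled sham libraries held 89.8 and 100.8 FPKM, and the difference was -3.13 (adjusted p = 9.31e-05). Cd14, the lipopolysaccharide co-receptor of monocytes, was at 0.55 and 1.34 FPKM, on either side of the unoperated range of 0.92 to 1.05, and at 6.77 and 11.2 in labelled sham hearts. Lgals3, galectin-3, was at 4.18 and 1.86 FPKM against 0.61 to 1.51 (0.87, adjusted p = 0.0293; 1.76 after GC adjustment and 0.17 after the offset) and at 24.2 and 42.5 in labelled sham hearts. Ccr2, Ms4a7, Cd14 and Lgals3 were named after their values were seen.

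In the resident macrophage list, of 14 members 6 had both values above and 3 both below the 4 unoperated values, and of 12 tested 3 were called higher and 1 lower, with a median of 0.25; Folr2 and Ptprc passed the minimum only through the labelled resected libraries. Only 1 was higher without the second P0, the first P4 or the second labelled resected library. Lyz2, a lysozyme of all myeloid cells, was at 15.3 and 13.2 FPKM against 7.22 to 9.94 and rose by 0.64 (adjusted p = 0.00956), though not without the first labelled resected library (adjusted p = 0.053) and with a value of -0.50 after the offset. C1qa, a complement chain made by tissue macrophages, was at 2.45 and 4.71 FPKM against 7.72 to 10.2 and was called lower at -1.14 (adjusted p = 0.00239), with a value of 0.03 after GC adjustment (adjusted p = 0.913).

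Cytokine and chemokine transcripts were few. Of 26 members 9 had both values above and 4 both below those of unoperated hearts, beside 13.9% and 30.1% of models with any signal. Of 11 tested 5 were called higher and 3 lower, beside 14.0% and 32.4% of all models. The summed level of the list was 48.1 and 50.9 FPKM in labelled resected hearts, within the 40.2 to 63.0 of unoperated hearts. In labelled sham hearts it was 169.7 and 293 FPKM. Of the 11, Ccl7, Ccl9, Cxcl1 and Il33 passed the minimum only through the labelled resected libraries, and none was called after the offset. Without either labelled resected library 3 were higher and 1 lower. Ccl6, a myeloid chemokine, was at 7.70 and 10.4 FPKM against 0.82 to 1.62 and rose by 2.22 (adjusted p = 3.02e-05; 0.56 and 0.612 after the offset), below 71.0 and 135 in labelled sham hearts. Il33, an alarmin released by damaged cells, was at 2.61 and 2.46 FPKM against 0.56 to 1.22 and rose by 1.01 (adjusted p = 0.00215; 0.62 and 0.292 after the offset). Cxcl1, a neutrophil attractant, was at 1.84 and 2.11 FPKM against 0.32 to 0.75 and rose by 0.97 (adjusted p = 0.00215; 0.86 and 0.34 after the offset). Ccl2, the main monocyte attractant, was at 2.36 and 4.16 FPKM, within the 1.29 to 3.32 of unoperated hearts in one library and above it in the other (0.52, adjusted p = 0.152; 1.01 and 0.0127 with quantile normalization). It was lower than in labelled sham hearts, at 12.4 and 18.9 FPKM, by -1.98 (adjusted p = 0.0138; 0.166 without the second labelled sham and 0.0798 without the first labelled resected library). Il6 and Il1b, the classical inflammatory cytokines, stayed below the expression minimum. Il6 was at 0.09 and 0.19 FPKM in the labelled resected libraries, listed at 0 in all unoperated ones and at 0.93 and 0.61 in labelled sham. Il1b was at 0 and 0.21 FPKM, 0.08 to 0.27 and 1.03 and 2.39 in the same order.

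Of 21 acute-phase and gp130-STAT3 targets 11 had both values above the 4 unoperated ones, beside 13.9% of models with any signal, and 1 both below. Of 16 tested 7 were called higher and 1 lower, 3 of them (Saa3, Serpina3n and Lcn2) having passed only through the labelled resected libraries. Leaving out the first labelled resected library gave 4 higher and 2 lower, and leaving out the second 4 and 1. Saa3, a local serum amyloid A, was at 3.18 and 2.63 FPKM, listed at 0 in 3 unoperated libraries and at 0.03 in the other, and at 38.7 and 41.4 in labelled sham hearts. Lcn2, an iron-binding acute-phase protein, was at 2.11 and 3.0 FPKM against 0.51 to 1.05 and rose by 1.04 (adjusted p = 0.00187; 0.92 and 0.274 after the offset), below 10.04 and 17.6 in labelled sham hearts. Timp1, an inhibitor of matrix proteases, was at 8.48 and 10.3 FPKM against 3.70 to 6.19 and rose by 0.75 (adjusted p = 0.0117), which failed without the second labelled resected library (adjusted p = 0.068), with 0.40 after the offset (adjusted p = 0.573). In labelled sham hearts Timp1 was at 43.8 and 46.0 FPKM (difference -2.15, adjusted p = 0.000983). Osmr, the oncostatin M receptor, was at 4.46 and 3.62 FPKM against 2.17 to 2.87 and rose by 0.55 (adjusted p = 0.0169; 0.113 without the first labelled resected library). Socs3, the STAT3-induced feedback inhibitor, was at 1.75 and 1.52 FPKM against 1.19 to 1.73, with 1 library within that range and 1 just above it (0.11, adjusted p = 0.621; 1.82 and 5.04e-05 after GC adjustment).

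**Figure D3:**
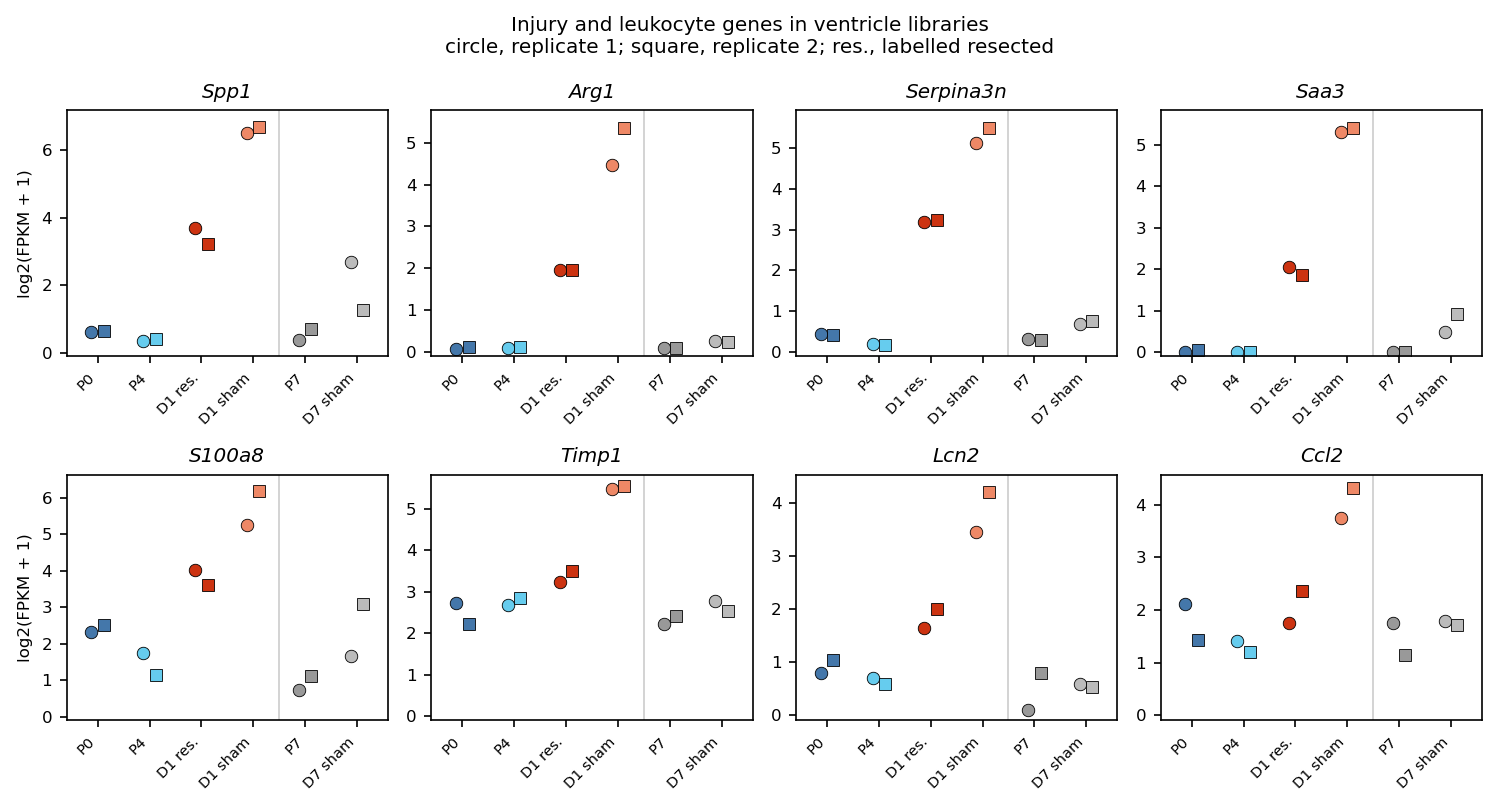
Levels (vertical axes, log2(FPKM + 1)) of 8 leukocyte and acute-phase genes in each ventricle library of P0, P4, day 1 resected and day 1 sham, and right of the grey line P7 and day 7 sham; circles are replicate 1 and squares replicate 2. For all 8 genes both labelled sham libraries lie above both labelled resected libraries, which for every gene but Ccl2 lie above the 4 unoperated ones.

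At day 1 these leukocyte and acute-phase genes were thus higher in the libraries labelled sham than in those labelled resected. The labels name removal of heart tissue for the pair with the lower levels, and give no direction for these genes. Nr4a1 and Nr4a3 were higher in those labelled resected, but their list as a whole was not. Of 17 tested immediate early genes 2 were called higher than labelled sham and 1 lower, with a median of -0.12 against -0.16 over all models. Both labelled resected values lay below both labelled sham values for 7 of the 17 and above for 5, beside 38.9% and 11.3% of all models. The test of labelled resected against labelled sham called 420 of 13713 models (3.06%), 48 higher (0.350%) and 372 lower (2.71%), and the 2 comparisons with unoperated hearts share their 4 control libraries. The count fell to 27 without the second labelled sham library, 82 without the first labelled resected and 103 without the first labelled sham library, and rose to 1975 without the second labelled resected library. Against labelled sham 7 of 9 tested recruited macrophage genes, 6 cytokines, 5 acute-phase genes, 3 resident macrophage genes and 2 neutrophil genes were called lower, and none of these lists had a call higher. Without the second labelled sham library 4 macrophage, 3 cytokine, 3 acute-phase, 0 resident and 1 neutrophil gene were still called lower. In 4 of them, both labelled resected values lay below both labelled sham values for 9 of 9 macrophage, 10 of 11 cytokine, 12 of 16 acute-phase and 5 of 6 neutrophil genes, where 38.9% of all tested models did. What set the levels in the libraries labelled sham was not tested.

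The share of wound matrix genes called lower was near that of all models. Of 26 members 1 had both labelled resected values above and 11 both below the 4 unoperated values. Of 25 tested 1 was called higher and 9 lower, beside 14.0% and 32.4% of all models, with a median of -0.30, and after GC adjustment 2 were higher and 5 lower. Thbs1, the thrombospondin of platelets and injured tissue, was the higher one, at 9.46 and 12.4 FPKM against 4.69 to 7.18 (0.73, adjusted p = 0.0105; 0.41 and 0.607 after the offset), and was named for that after its value was seen. Col1a1, the main fibrillar collagen chain, was at 65.9 and 55.6 FPKM against 368 and 253 at P0 and 311 and 307 at P4. It fell by 2.32 on the log2 scale (adjusted p = 1.6e-05; -0.58 and 0.31 after the offset), with labelled sham hearts as low, at 79.5 and 62.0 FPKM. Eln, elastin, was at 1.21 and 8.81 FPKM against 60.6 to 141 and fell by 4.52 (adjusted p = 0.000203; -1.69 and 0.3 after the offset). Tnc and Postn, matricellular proteins of healing heart, were not called: Tnc was at 3.91 and 5.54 FPKM against 4.31 to 8.43 and Postn at 184 and 276 against 223 to 308, though Postn was called lower with quantile normalization (-0.62, adjusted p = 0.0211).

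Among 18 pericellular proteases and inhibitors 5 lay above and 3 below all unoperated values. Of 14 tested, Adamts1, Timp1, Timp3 and Serpine2 were called higher and Mmp2, Mmp14 and Adamts4 lower, the median being -0.01; without the second labelled resected library 1 was higher and 4 lower. Mmp14, the membrane-bound collagenase, was at 16.01 and 18.3 FPKM against 30.9 to 43.7 and was called lower at -1.06 (adjusted p = 0.001), a call lost after GC adjustment (-0.05, adjusted p = 0.77) and after the offset (-0.62, adjusted p = 0.256).

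Of 19 stress genes of cardiomyocytes 1 had both values above and 9 both below the 4 unoperated values, beside 13.9% and 30.1% of models with any signal, and of 16 tested 1, the endocytic adaptor Dab2 (0.55), was called higher and 8 lower, beside 14.0% and 32.4% of all models, with a median of -0.48. After GC adjustment 1 was higher and 4 lower. Nppa, the atrial natriuretic peptide, was at 230 and 517 FPKM in labelled resected, 375 and 144 at P0 and 113 and 287 at P4 hearts, so that the groups overlapped (0.75, adjusted p = 0.246). Nppb, the B-type peptide, was at 88.2 and 238 FPKM against 52.0 to 101.3 (0.89, adjusted p = 0.0882; 1.11 and 0.0331 with median-of-ratios scaling). Without the first labelled resected library Nppb was at 1.6 (adjusted p = 0.0043), so whether it is called depends on the library kept. Ankrd1, a strain-responsive titin-binding protein, was at 322 and 451 FPKM within 247 to 522 (0.14, adjusted p = 0.716).

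Myh7, the slow fetal myosin heavy chain, was at 241 and 198 FPKM in labelled resected hearts, 2557 and 2516 at P0 and 907 and 877 at P4. It fell by 2.78 (adjusted p = 0.00142), but labelled sham hearts held 205 and 144 and day 7 sham hearts 98.6 and 119 FPKM, and the difference after the offset was 0.17. Flnc, the filamin of the Z-disc, was at 15.2 and 18.3 FPKM against 50.9 to 78.6 and fell by 1.80 (adjusted p = 0.000132; -0.74 and 0.0089 after GC adjustment). None of the cardiomyocyte stress genes was called between labelled resected and labelled sham hearts.

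Replication genes, which copy DNA in S phase, had more members called higher than lower. All 24 members were tested and none passed only through the labelled resected libraries. Called higher were 12, beside 14.0% of all models, and lower 1, with a median of 0.48 against -0.20 over all models, and after GC adjustment the counts were 13 and 0. With median-of-ratios scaling the list's median was 0.66 and with quantile normalization 0.76, against all-model medians of -0.02 and 0.11. Without the first labelled resected library 14 were higher and none lower, and without the second 4 and 1, so the count leans on the second library. Leaving out 1 unoperated library gave 8 to 11 higher. Mcm6, a subunit of the replicative helicase, was at 36.4 and 38.4 FPKM against 21.7 to 26.2 in unoperated and 23.8 and 23.3 in labelled sham hearts. It rose by 0.65 against unoperated (adjusted p = 0.00415) and by 0.65 against labelled sham (adjusted p = 0.0466). Pola1, the catalytic subunit of the primase-polymerase, was at 8.91 and 8.61 FPKM against 2.78 to 5.25 and rose by 0.89 (adjusted p = 0.00761). Tyms, thymidylate synthase, was at 10.3 and 16.2 FPKM against 4.68 to 7.51 and rose by 0.94 (adjusted p = 0.0073; 0.0549 without the second labelled resected library), with a value of -0.35 after the offset.

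Against labelled sham 3 replication genes were called higher (0.350% of all models) and none lower, Mcm6, Uhrf1 and the origin licensing factor Cdc6. Cdc6 was at 3.29 and 4.86 FPKM against 1.93 to 3.18 in unoperated and 1.6 and 1.31 in labelled sham hearts (1.03 above sham, adjusted p = 0.0398). In 16 of the 24 both labelled resected values lay above both labelled sham values, where 11.3% of all models did. The 3 calls above labelled sham fell to 0 or 1 with any 1 of the 8 libraries left out. No replication gene was called after the offset, whose list median was 0.17. Mcm6, Uhrf1 and Cdc6 were named after their values were seen.

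Mitotic genes as a list were close to all models against unoperated hearts. Of 27 tested, Cdk1 was called higher (0.70, adjusted p = 0.0268) and 5 lower, Cdc20, Cenpa, Ube2c, Ccnb2 and Plk1, beside 14.0% and 32.4% of all models, with a median of -0.22. With median-of-ratios scaling 3 were higher and 4 lower with a median of -0.02, and with quantile normalization 1 and 3 with a median of 0.08. After GC adjustment 1 was higher and 6 lower, beside 19.3% and 18.3% of all models. The list median was then -0.25, against -0.02 over all models. Cdc20, an activator of the anaphase-promoting complex, was at 5.42 and 5.69 FPKM against 11.3 to 15.7 and fell by 1.09 (adjusted p = 0.00057; -0.67 and 0.0116 after GC adjustment). Without the first labelled resected library 2 were higher and 1 lower, and without the second none and 10. Mki67, the Ki-67 proliferation antigen, was at 17.7 and 20.2 FPKM across the unoperated range of 6.40 to 23.4 (0.36, adjusted p = 0.492), and Ccnb1, cyclin B1, gave -0.03 (adjusted p = 0.891). Against the same 4 unoperated libraries, labelled sham hearts had 20 of the 27 called lower, where 27.2% of all models were lower (22.3% higher, 49.5% in either direction), and none higher, with a median of -0.85. The direct comparison called 2 of them higher in labelled resected than in labelled sham hearts, Ccna2 (0.94, adjusted p = 0.0466) and the spindle midzone protein Prc1 (1.08, adjusted p = 0.0383), and none lower. Those calls fell to 0 without the second P0, the first P4 or either labelled sham library.

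**Figure D4:**
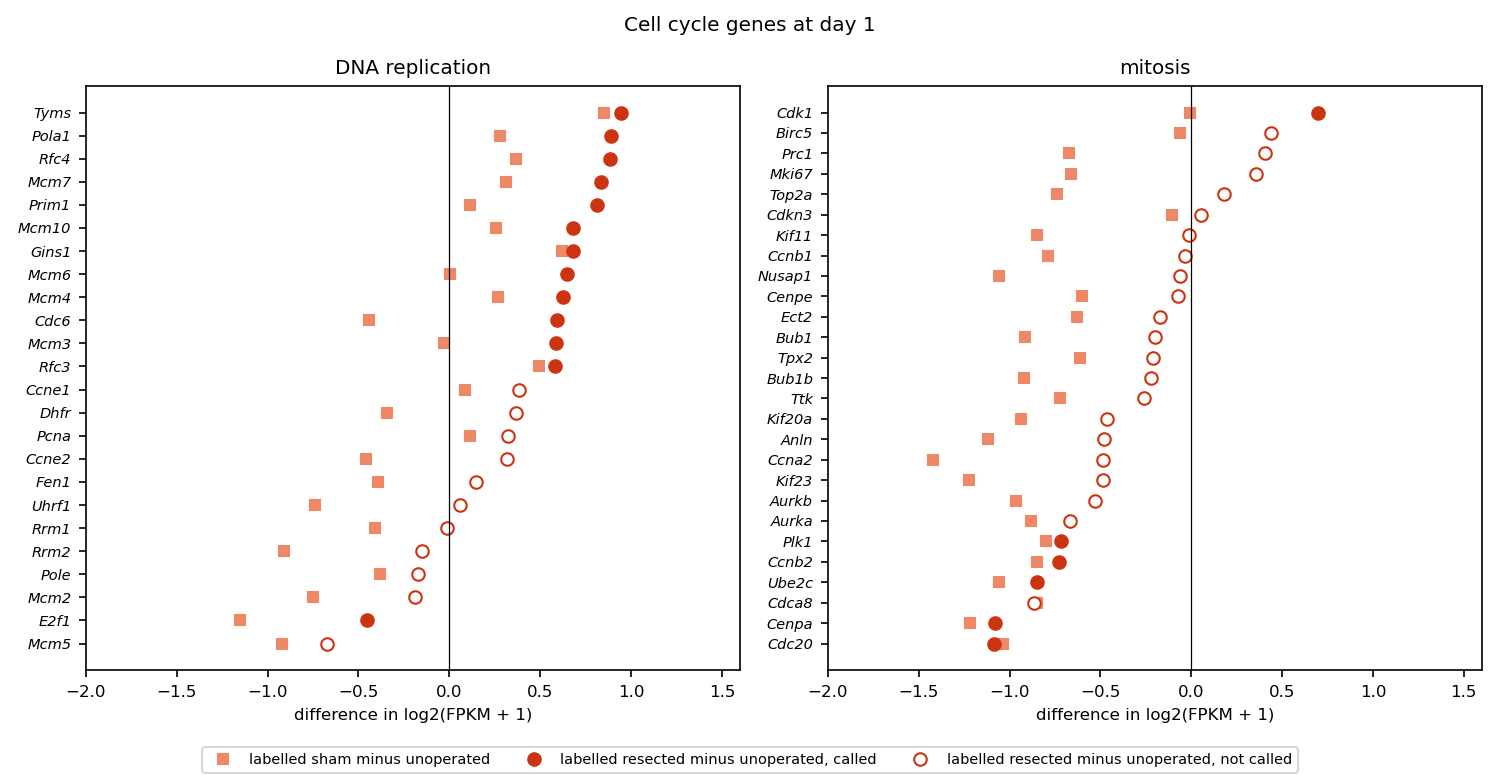
Log2 difference (horizontal axis, log2(FPKM + 1)) from unoperated ventricle of 24 DNA replication and 27 mitosis genes, with circles for labelled resected (filled where called) and squares for labelled sham hearts. Replication genes lie mostly right of 0 in labelled resected hearts, with 12 called higher, and mitosis genes lie mostly left of 0 in labelled sham hearts, with 20 called lower.

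Genes of contraction and energy supply changed in both directions, and no member of these lists was called after the offset. Casq2, the calcium buffer of the sarcoplasmic reticulum, was at 1604 and 1298 FPKM against 377 to 462 and rose by 1.79 (adjusted p = 6.26e-05; 0.59 and 0.278 after the offset); labelled sham hearts held 1211 and 1146. In the calcium and ion channel list 3 of 18 were called higher and 4 lower, and in the contractile list 2 of 18 higher and 5 lower, beside 14.0% and 32.4% of all models. The balance of both lists turned with the scaling: median-of-ratios scaling gave 6 higher and 3 lower calcium and channel genes and 8 and 4 contractile genes, and GC adjustment 5 and 2, and 3 and 1. Tcap, a titin cap protein, was at 31.0 and 33.3 FPKM against 92.1 to 198 and was called lower at -1.99 (adjusted p = 0.000342), a call lost after GC adjustment (-0.61, adjusted p = 0.0916). Myh6, the fast adult myosin, was at 2256 and 2243 FPKM against 3095 to 4140 and was called lower at -0.64 (adjusted p = 0.032), with a value of 0.06 after GC adjustment and of -0.42 with median-of-ratios scaling (adjusted p = 0.131). That call was lost without either P4 or either labelled resected library (adjusted p 0.0548 to 0.108). Kcnip2, a subunit of the transient outward potassium channel, was at 42.9 and 43.9 FPKM against 33.1 to 42.6 in unoperated hearts (0.22, adjusted p = 0.284; 0.52 and 0.014 after GC adjustment). It was above labelled sham hearts, at 22.0 and 12.1 FPKM, by 1.36 (adjusted p = 0.0224, lost without the second labelled sham or the first labelled resected library), and was named after its values were seen.

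Of 26 fatty acid oxidation genes 9 were called higher and 4 lower with a median of 0.21, and of 25 respiratory chain genes 10 higher and 6 lower with a median of 0.35, beside 14.0% and 32.4% of all models. Without the second labelled resected library the higher counts fell to 3 and 4, and without the first the lower counts fell to 1 and 3. After quantile normalization the counts were 4 and 4, and 4 and 8, and both medians lay below that of all models, at -0.07 and -0.11 against 0.11. Etfa, an electron transfer flavoprotein, was at 163 and 346 FPKM against 82.6 to 103 and rose by 1.35 (adjusted p = 0.00333), with -0.48 after the offset. Acads, the short-chain acyl-CoA dehydrogenase, was at 17.9 and 9.12 FPKM against 54.4 to 75.6 and fell by 2.24 (adjusted p = 0.000113), with a value of -1.06 after GC adjustment (adjusted p = 0.0121) and of -0.13 after the offset. Ppargc1a, the coactivator of mitochondrial biogenesis, was at 44.6 and 61.5 FPKM against 21.1 to 35.9 and rose by 0.95 (adjusted p = 0.00728; 0.70 and 0.337 after the offset); it was named after its values were seen. Of 16 glycolysis genes 3 were higher and 7 lower, beside the same shares of all models, and after GC adjustment 4 and 1; without the first labelled resected library 3 were higher and 3 lower. None of the genes of these 3 lists was called against labelled sham.

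Hypoxia targets gave 4 higher and 1 lower of 17 tested, beside 14.0% and 32.4% of all models. Pgk1, a glycolytic kinase induced by HIF, was at 69.2 and 105 FPKM against 14.2 to 22.7 and rose by 2.31 (adjusted p = 7.02e-05), but the day 7 sham libraries differed from P7 by as much and -0.19 was left after the offset. Bnip3, a mitophagy receptor, was at 36.3 and 26.2 FPKM against 7.71 to 14.7 and rose by 1.5 (adjusted p = 0.000988; 0.39 after the offset).

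Of 11 tested heat shock chaperones 4 were called higher and 3 lower, beside 14.0% and 32.4% of all models. Hsp90aa1 was at 111 and 114 FPKM against 10.4 to 16.8 and rose by 2.93 (adjusted p = 5.53e-06), with -0.09 after the offset. Hspe1, the mitochondrial co-chaperonin, was at 74.2 and 71.0 FPKM against 21.4 to 26.6 in unoperated and 25.5 and 37.0 in labelled sham hearts. It was the chaperone called higher than labelled sham, by 1.21 (adjusted p = 0.0124, lost without the first labelled sham or the first labelled resected library), and was named for that after its values were seen. Multi-copy sequences are common in this class and its processed pseudogenes can share reads.

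Among glucocorticoid targets 6 of 13 members lay above and 2 below all unoperated values, and 3 of 12 tested were called higher and none lower, beside 14.0% and 32.4% of all models. Lcn2, 1 of the 3, passed the minimum only through the labelled resected libraries. Fkbp5, a co-chaperone of the glucocorticoid receptor, was at 15.3 and 14.6 FPKM against 4.69 to 7.95 and rose by 1.13 (adjusted p = 0.00147; 0.19 and 0.774 after the offset). Labelled sham hearts held 29.4 and 35.0 FPKM of it, higher than labelled resected (difference -1.05, adjusted p = 0.0343). That call was lost without the second P4, either labelled sham or the first labelled resected library (adjusted p 0.0535 to 0.249). The ATF4 list had 3 higher and 4 lower of 12, and 5 and 0 after GC adjustment, where its median went from -0.12 to 0.41. Psat1, a serine synthesis enzyme, was at 23.8 and 25.9 FPKM against 11.96 to 12.9 (0.95, adjusted p = 0.00032; 0.26 and 0.672 after the offset). Metallothionein and NRF2 targets had 2 higher and 2 lower of 13. Hmox1, haem oxygenase 1, was at 3.24 and 5.81 FPKM against 5.07 to 7.82 (-0.46, adjusted p = 0.122) and at 15.7 and 29.2 in labelled sham hearts. Mt2, a metal-binding stress protein, was at 5.90 and 28.2 FPKM, spanning the unoperated range of 4.34 to 20.7 (0.22, adjusted p = 0.799).

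Of 12 p53 targets 0 were called higher and 4 lower, a share of lower calls near the 32.4% of all models. After GC adjustment 1 was higher and 3 lower, and with median-of-ratios scaling 2 and 4. Bax, a pro-apoptotic gene, was at 6.16 and 6.05 FPKM against 20.7 to 27.0 (-1.82, adjusted p = 1.9e-05; -0.80 and 0.00154 after GC adjustment). Bbc3, another, was called lower at -1.34 (adjusted p = 0.000588). Bbc3 was at 0.70 after GC adjustment, so its sign depends on that step. In the interferon list 2 of 11 were higher and 1 lower, beside 14.0% and 32.4% of all models, with Ifitm3, a membrane protein that restricts virus entry, at 51.6 and 58.6 FPKM against 18.7 to 35.3 (0.97, adjusted p = 0.00847).

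**Figure D5:**
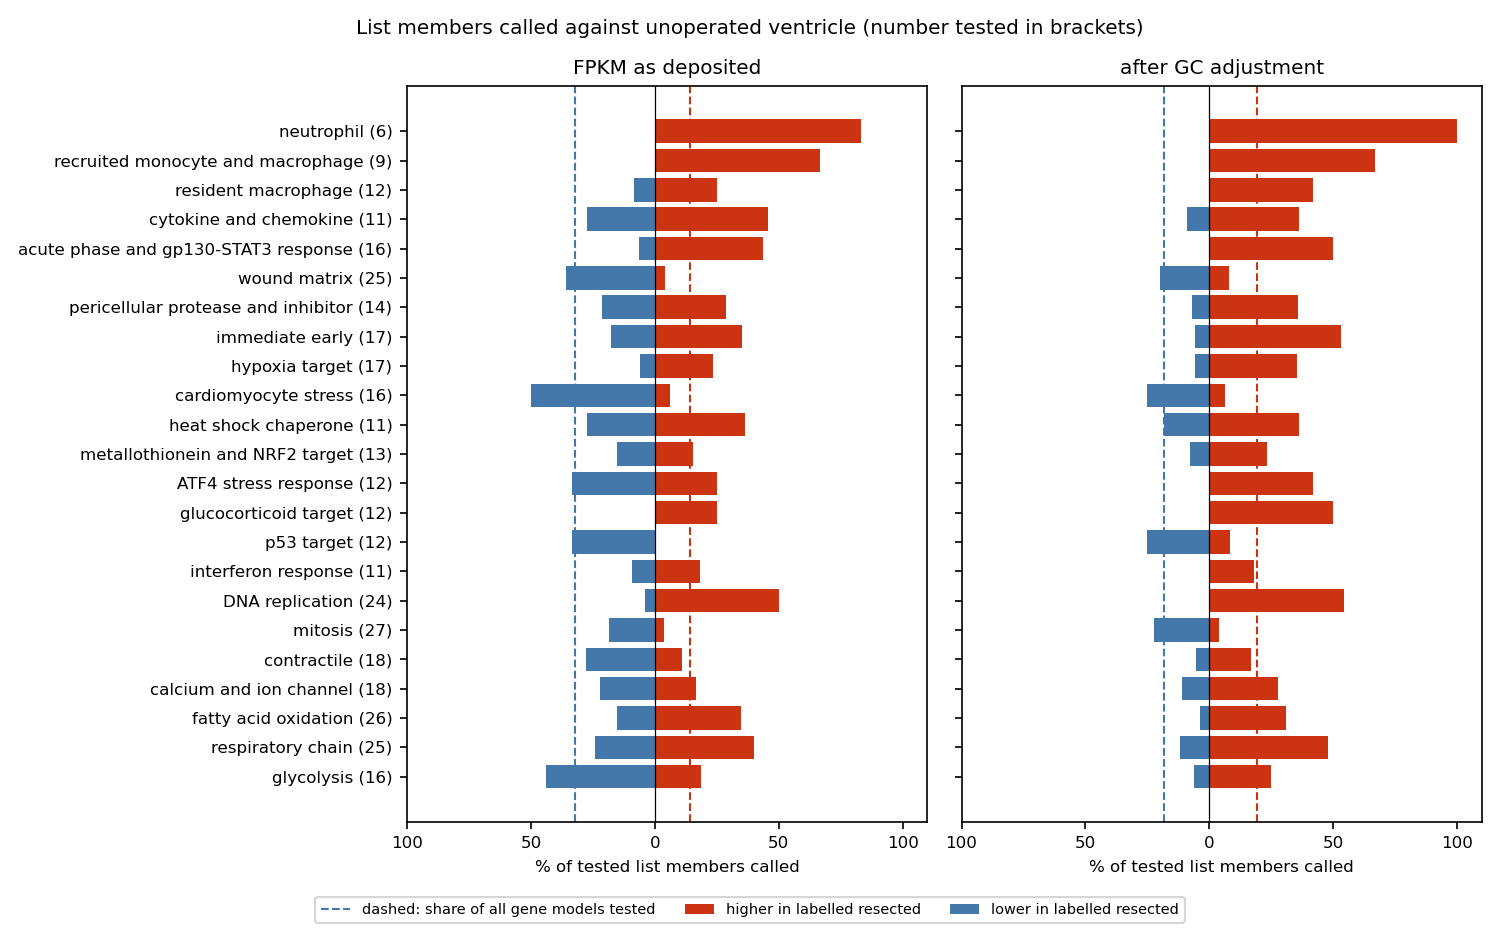
Share of tested members (horizontal axis, percent) of 23 pathway lists called higher (red) or lower (blue) in labelled resected against unoperated ventricle, as deposited and after GC adjustment, with dashed lines at the share of all tested models. As deposited the lines stand at 14.0% higher and 32.4% lower, and after adjustment at 19.3% and 18.3%.

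The marker lists of cardiomyocytes, fibroblasts, endothelium and pericytes held no member called higher as deposited, beside 14.0% of all models. Of 6 cardiomyocyte markers 2 were called lower, beside 32.4% of all models. Both labelled resected values lay above all 4 unoperated values for 3 of the 6 and below for 2. The median of that list was 0.20 against -0.20 over all models. With median-of-ratios scaling 2 of 6 cardiomyocyte, 1 of 9 fibroblast and 1 of 8 endothelial markers were called higher, and after GC adjustment 2 of 6 cardiomyocyte markers. Nkx2-5, a transcription factor of cardiomyocytes, was at 2.86 and 3.90 FPKM against 46.6 to 77.0 and fell by 3.74 (adjusted p = 2.46e-06), with values of -1.80 after GC adjustment and -1.16 after the offset (adjusted p = 0.118). Labelled sham hearts held 8.65 and 12.1 FPKM, above labelled resected (difference -1.37, adjusted p = 0.0216; 0.0552 to 0.208 without either labelled sham or the first labelled resected library). Tcf21 (mm9 chr10:22537084-22539934), a factor of cardiac fibroblasts, was among the genes called lower in all 4 treatments of the data. It was at 5.68 and 7.45 FPKM against 21.9 and 16.9 at P0 and 16.9 and 17.8 at P4, a fall of 1.36 ± 0.16 (adjusted p = 0.000209) and of -1.27 after the offset (adjusted p = 0.029). Labelled sham hearts were as low, at 6.50 and 5.58 FPKM. The fibroblast list as a whole had 2 of 9 lower and none higher, beside 32.4% and 14.0% of all models, with a median of 0.05.

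Endothelial genes had 5 of 8 called lower and none higher, beside 32.4% and 14.0% of all models, and 2 of 8 after GC adjustment. In the fit without the first labelled resected library 2 were lower and 1 higher. Tie1, an endothelial receptor kinase, was at 6.61 and 9.12 FPKM against 27.3 to 37.7 and fell by 1.88 (adjusted p = 5.17e-05; -0.94 and 0.00103 after GC adjustment). Smooth muscle and pericyte genes had 3 of 9 lower and none higher, a share of lower calls near the 32.4% of all models. After GC adjustment 4 were lower, beside 18.3% of all models. Among those called lower was Cspg4 (the proteoglycan NG2), at 1.6 and 2.12 FPKM against 8.01 to 11.97 (-1.87, adjusted p = 5.23e-05; -0.90 and 0.00139 after GC adjustment). Upk1b, a mesothelial uroplakin, was at 10.6 and 6.65 FPKM against 1.17 to 3.28 and rose by 1.80 (adjusted p = 0.00121; 0.33 and 0.772 after the offset), the one epicardial marker called. The erythroid list had 1 of 6 called higher, the anion exchanger Slc4a1 (0.67, adjusted p = 0.0224; 1.44 after GC adjustment), and 1 lower, with a median of 0.00. Hba-a1, an alpha globin of red cells, was at 27.7 and 33.7 FPKM against 180 to 250 and fell by 2.81 (adjusted p = 4.32e-06).

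Markers of most tissues from outside the ventricle were low, atrial markers excepted. No T cell, B cell or liver marker reached the expression minimum, and of 9 lung markers 1 did, with summed levels of 1.42 and 2.03 FPKM in labelled resected and 4.11 to 5.78 in unoperated hearts. Summed atrial markers were at 67.6 and 70.7 FPKM in labelled resected and 49.2 to 951 in unoperated hearts, the upper values from P0. The median difference of the atrial list was -0.81, and -0.04 without the first P0 library. That library also held more Nppa than the second P0 library. Summed adipocyte markers, 1 of 8 tested, were at 24.9 and 25.8 FPKM against 13.6 to 19.7. Keratinocyte markers were at 4.27 and 4.50 FPKM against 2.48 to 3.42. The summed cardiomyocyte list was at 16240 and 17960 FPKM against 13200 to 16170.

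The other named genes called lower in all 4 treatments were Rpl38, Ccdc117 and Thsd1. Rpl38 (mm9 chr11:114529837-114533645), a ribosomal protein gene, was at 0.18 and 0.42 FPKM against 12.2 to 17.0, a fall of 3.55 (adjusted p = 9.36e-07) and a value of -1.69 after the offset (adjusted p = 0.0407). All operated libraries were low for it, with 1.78 and 1.57 FPKM in labelled sham and 1.98 and 3.09 in day 7 sham hearts. Ccdc117 (mm9 chr11:5428889-5442190) was at 5.70 and 6.17 FPKM against 9.12 to 10.5 (-0.63, adjusted p = 0.00397). Thsd1 (mm9 chr8:23337784-23371806), an endothelial thrombospondin-repeat protein, was at 2.93 and 3.54 FPKM against 5.53 to 6.52 (-0.73, adjusted p = 0.00295). With quantile normalization both calls were lost, at -0.25 for Ccdc117 (adjusted p = 0.132) and -0.25 for Thsd1 (adjusted p = 0.13). The small RNA model mmu-mir-689-2 was listed at 0 in both labelled resected libraries, at 52.2 to 79.6 FPKM in the 4 unoperated ones and at 19.4 to 28.7 in the 6 other operated ventricle libraries. Its log2 difference was -6.01 as deposited, -3.58 after GC adjustment and -3.95 after the offset. It was singled out after its values were seen.

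Most of the 10 largest increases and decreases by the rule came from multi-copy sequences or mitochondrial tRNA genes. Hmg1l1 (mm9 chr7:49276094-49277375), an Hmgb1-like copy, was at 40.0 and 68.6 FPKM against 0.09 to 0.36, a log2 difference of 5.43, and day 7 sham hearts held 66.3 and 45.9 FPKM. Hmgb1-ps2, Hmgb1-ps3, Hmgb1-ps4, Rpl17-ps3, H3f3a-ps2 and Rps27a-ps2 were pseudogene models of the same kind, and Rps25, H3f3c and Chchd2 completed the 10 largest increases. The mitochondrial tRNA genes mt-Te, mt-Ty, mt-Tc, mt-Tl1 and mt-Tq and the model Rpl23a-ps1 were listed at 0 in all 8 operated libraries, and mt-Te was at 93.1 to 192 FPKM in the P0 and P4 hearts. The fall of mt-Tq did not survive the offset, after which it was called higher. Both P7 libraries held more mt-Tq than any P0 or P4 library, which is where the turned sign comes from. Rpl36-ps2, Aldoart2, Atp5l2 and Kcng2 completed the 10 largest decreases. Kcng2, a potassium channel subunit, was at 0.79 and 2.09 FPKM against 69.5 to 78.3 in unoperated and 4.22 and 9.22 in labelled sham hearts. It fell by 4.98 (adjusted p = 4.36e-07), with -2.71 after GC adjustment and -1.43 after the offset (adjusted p = 0.127), and differed from labelled sham by -1.63 (adjusted p = 0.0273). In all, 29 models were at 0 in all 8 operated libraries with at least 20 FPKM in all 8 unoperated ones. Levels of models that share reads with near-identical copies are uncertain.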

How the data were processed

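Ventricle libraries were compared as groups given by the labels. The deposited values are FPKM, in a table the authors made with 1 column per library. The submitters' processing notes name Cufflinks 1.2.1, TopHat 1.3.2, Bowtie 0.12.7, Cuffdiff and build mm9; the annotation is not given in the sources used here. FPKM keep no read counts, so depth per library is unknown and no interval or detection limit was computed. Log2(FPKM + 1), with a pseudocount of 1, was tested with limma 3.58.1 (R 4.3.3) and a variance trend, in models with an FPKM of at least 1 in 2 libraries. Tests were two-sided, adjusted by Benjamini-Hochberg over all models tested, with a threshold of 0.05. Fold changes on this scale understate the change of low genes. Levels were also adjusted for transcript GC content by lowess per library (span 0.3). The day 7 sham offset came from a fit of the 16 ventricle libraries. The scripts were tested on simulated data. Figures used Matplotlib 3.10.9.

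The members and the 41 gene lists (23 of pathways, 18 of cell types, 568 of 596 members in the table) were chosen with earlier results of these data known. Named by rule were the 10 largest increases and decreases with a mean of at least 5 FPKM in a group and no overlap, 2 members of each list and 24 genes always considered; any other gene is said to be named after its values were seen. The text gives a selection. Lists are described by counts and medians, with no test of a list. Alternatives were other pseudocounts, filters, scalings and fits, each library left out in turn, P0 or P4 alone, and the replicate number as a block. Added after the data were seen were the GC adjustment, the day 7 sham offset and both together.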

Additional observations from a re-analysis of the deposited data

Results flagged for a closer look

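At day 1 all leukocyte, chemokine and acute-phase genes called were lower in the libraries labelled resected than in those labelled sham. The immediate early genes Nr4a1 (1.40) and Nr4a3 (1.02) were higher in the libraries labelled resected. Of the 17 tested members of their list these 2 were called higher and 1 lower, with a median of -0.12. The Nr4a1 call was lost without the second P0 or the second P4 library, among others. Of 13713 models 372 were lower in the labelled resected libraries and 48 higher by limma. Among genes of injury the log2 difference of labelled resected from labelled sham was -3.13 for Spp1, -2.15 for Timp1, -2.07 for Hmox1, -2.02 for Lcn2, -1.98 for Ccl2, -1.91 for S100a8, -1.43 for Cxcl1 and -1.34 for Socs3, each called at an adjusted p under 0.05. For each of the 8 genes both labelled sham values lay above both labelled resected values. The calls of Spp1 and Timp1 held with each library left out in turn, and each of the other 6 was lost without at least 1 library. Without the second labelled sham library the adjusted p was 0.11 for Hmox1, 0.0652 for Lcn2, 0.166 for Ccl2, 0.29 for S100a8, 0.18 for Cxcl1 and 0.0652 for Socs3. Without the first labelled resected library it was 0.0583 for Hmox1, 0.0798 for Ccl2, 0.112 for S100a8 and 0.103 for Cxcl1. No cause was tested.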

How the results depend on the processing

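Of the 6232 models called against unoperated ventricle, 2745 passed a 2-fold minimum, and 40 of those tested were called after the day 7 sham offset and 19 after the offset with GC adjustment. With 1 library left out the count ran from 5384 to 5831. Against labelled sham the 420 calls became 254 with an FPKM minimum of 5, 186 after quantile normalization, 268 with a 2-fold minimum, 1468 in a fit of all 16 ventricle libraries and 18 in a fit of the 4 day 1 libraries alone. With 1 library left out that count ran from 27 (without the second labelled sham library) to 1975 (without the second labelled resected library). It was 82 without the first labelled resected and 103 without the first labelled sham library, and 196, 221 and 241 without the second P0, the first P4 and the second P4 library.

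Same-numbered replicates did not deviate together, with correlations of deviations from group means of -0.083 to 0.096. With 2 libraries per group this cannot exclude that they share more than a number. With the replicate number as a block 5942 models were called against unoperated ventricle and 279 against labelled sham.

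Signs that turned against unoperated ventricle included the following, and the cause was not tested. With the day 7 sham offset the values were -0.079 for Hmg1l1, -0.092 for H3f3a-ps2, -0.14 for Rps25, -0.009 for H3f3c, -0.78 for Rps27a-ps2, -0.50 for Lyz2, -0.19 for Pgk1, 0.17 for Myh7, -0.088 for Hsp90aa1, -0.35 for Tyms, -0.48 for Etfa, -0.35 for Ndufa4, 0.081 for Myh6, 0.05 for Irx4 and -0.092 for Slc4a1. With the offset and GC adjustment they were -0.036 for Rps25, -0.69 for Rps27a-ps2, 0.037 for Aldoart2, 0.23 for C1qa, -0.39 for Lyz2, -0.08 for Pgk1, 0.35 for Myh7, 0.051 for Shmt2, 0.13 for Bbc3, -0.22 for Tyms, 0.21 for Tcap, 0.11 for Acads, -0.38 for Etfa, 0.16 for Cox8b, -0.27 for Ndufa4, 0.28 for Myh6, 0.30 for Irx4 and 0.004 for Pdgfrb. With GC adjustment alone they were 0.029 for C1qa, 0.70 for Bbc3, 0.064 for Myh6 and 0.14 for Irx4.

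With 2 libraries labelled resected and no read counts, small differences and genes near 1 FPKM were not resolvable. Operation, library set and age at operation cannot be told apart.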
